A study of Homo sapiens with 6 samples.

Results

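A group of 10 growth arrest genes was followed in Hep3B cells given sorafenib: the CDK inhibitors CDKN1A, CDKN1B, CDKN1C, CDKN2A and CDKN2B, the stress genes GADD45A, GADD45B and GADD45G, and the antiproliferative genes BTG1 and BTG2. They were chosen by symbol, taking every probe that the platform annotation assigns to them, out of 20045 genes with a named probe on the array. The annotation assigned 16 probes to 9 of the 10 genes and none to BTG2, which was not analysed here. A probe was tested when it was detected (detection p under 0.01) on at least 3 of the 6 arrays, and 13 of the 16 probes, covering 9 genes, met this. The data comprise 3 Hep3B samples exposed for 24 h to sorafenib at a labelled dose of 3 mM, and 3 control samples exposed for 24 h to its solvent DMSO. Sorafenib blocks RAF and several receptor tyrosine kinases and is usually used on cells at micromolar doses, and the unit in the labels could not be checked from the data. All 6 samples are 1 cell line, established from a human hepatocellular carcinoma. Whether replicates were grown separately is not labelled, so the spread behind each p-value may be technical only. Total RNA was hybridised as biotinylated cRNA to Illumina expression arrays of 47321 probes.

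CDK inhibitors act on the kinases that drive the cell cycle. The CIP/KIP proteins p21 (CDKN1A), p27 (CDKN1B) and p57 (CDKN1C) bind cyclin and kinase complexes, whereas the INK4 proteins p16 (CDKN2A) and p15 (CDKN2B) bind CDK4 and CDK6 and thereby keep the retinoblastoma protein active. GADD45 proteins are small stress-inducible factors that bind the kinase MAP3K4, PCNA and the CDK1 and cyclin B complex, and BTG proteins recruit the CCR4-NOT deadenylase to shorten messenger RNA tails. CDKN1A, GADD45A and BTG2 are classical p53 targets, and Hep3B is known to lack p53 and functional retinoblastoma protein.

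The promoter of a gene, the stretch around its transcription start where regulators bind, is shown for 4 of the genes because their transcripts went different ways: GADD45G and BTG1 were higher with sorafenib, GADD45B was lower, and CDKN1A passed no test. Each sequence is from RefSeq (GRCh38.p14), runs 5′ to 3′ on the gene's strand from 250 bases before to 50 bases after the annotated start, and has in capitals every match to the motifs named after it. The windows lie at chr9:89604762-89605061 (plus strand), chr12:92145797-92146096 (minus strand), chr19:2475877-2476176 (plus strand) and chr6:36678464-36678763 (plus strand).
GADD45G: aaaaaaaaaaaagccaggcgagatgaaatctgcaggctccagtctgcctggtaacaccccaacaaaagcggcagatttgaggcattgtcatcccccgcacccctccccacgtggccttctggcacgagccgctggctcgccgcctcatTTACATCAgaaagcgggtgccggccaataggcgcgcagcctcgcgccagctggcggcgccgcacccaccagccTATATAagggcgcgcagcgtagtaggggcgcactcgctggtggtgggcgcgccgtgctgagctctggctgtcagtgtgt
BTG1: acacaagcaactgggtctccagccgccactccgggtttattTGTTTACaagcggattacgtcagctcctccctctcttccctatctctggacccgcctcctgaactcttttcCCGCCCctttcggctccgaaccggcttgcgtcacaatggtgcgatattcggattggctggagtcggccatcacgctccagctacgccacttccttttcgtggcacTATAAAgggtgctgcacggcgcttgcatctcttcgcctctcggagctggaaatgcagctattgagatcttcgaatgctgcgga
GADD45B: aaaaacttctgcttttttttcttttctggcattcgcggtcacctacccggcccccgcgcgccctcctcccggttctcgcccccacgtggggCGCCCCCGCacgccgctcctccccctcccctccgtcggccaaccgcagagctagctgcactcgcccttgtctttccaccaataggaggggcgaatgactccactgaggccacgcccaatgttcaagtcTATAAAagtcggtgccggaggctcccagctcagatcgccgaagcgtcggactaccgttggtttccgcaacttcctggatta
CDKN1A: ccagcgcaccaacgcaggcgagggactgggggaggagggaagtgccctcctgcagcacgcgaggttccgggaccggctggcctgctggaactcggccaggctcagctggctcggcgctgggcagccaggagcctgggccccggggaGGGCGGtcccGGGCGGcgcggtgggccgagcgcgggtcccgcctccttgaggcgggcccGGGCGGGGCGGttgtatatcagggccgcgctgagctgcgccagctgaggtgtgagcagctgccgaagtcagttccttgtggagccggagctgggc
Both strands were searched for the C/EBP-ATF composite element (TGATGNAA), the CRE (TGACGTCA), the GC box (GGGCGG), the TATA box (TATAAA or TATATA), the EGR1 box (GCGNGGGCG) and the forkhead element (TGTTTAC). GC boxes and EGR1 boxes can share letters, since both are rich in G and C. A C/EBP-ATF composite element, the type bound by ATF4 and CHOP with C/EBP partners, occurred in the GADD45G window on the opposite strand (bases -102 to -95 from the start), and 3.62% of 35116 promoter windows of the same length hold one. The BTG1 window held a forkhead element (bases -209 to -203), found in 3.42% of windows. GADD45B had an EGR1 box on the opposite strand (bases -159 to -151), as do 9.43% of windows. The GADD45G, GADD45B and BTG1 windows each had a TATA box, as do 13.7% of windows at any position. The CDKN1A window held none of these and 4 GC boxes, the SP1 binding type present in 45.0% of windows. The BTG1 window also had a GC box, on the opposite strand (bases -138 to -133). In the windows not shown, the only matches of CDKN1B, CDKN2A and CDKN2B were GC boxes. CDKN2A and CDKN2B, which were lower like GADD45B, thus had no EGR1 box, and any link between motif and direction was not tested. The BTG2 window held EGR1 boxes and GC boxes. RefSeq windows were found for 8 of the 10 genes. GADD45A, which was higher, and CDKN1C, which was lower, were not among them. A match describes letters in a window and does not show that a factor was bound.

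The arrays were alike in quality. Between 16569 and 17380 probes were detected on the sorafenib arrays, against 16214 to 16700 on the control arrays, and arrays correlated (Pearson, over tested probes, which are not independent) at 0.992 to 0.997 inside a group, against 0.977 to 0.982 between groups. Of 12 hepatocyte markers, 10 were measured, ALB and AFP included, and their summed normalized intensity was 180680 to 189019 on sorafenib arrays and 190739 to 199046 on control arrays. The markers did not move together: 2 were higher (APOA1 and GPC3), against 19.7% of all measured genes, and 3 lower (AFP, TF and KRT8), against 17.0%. The other 5, ALB included, did not pass. None of the 3 endothelial markers was measured, only LUM of 5 fibroblast markers (summed intensity 1060 to 1115 with sorafenib and 1505 to 1760 in controls), and CD68 and CD14 of 4 immune markers (1342 to 1577 with sorafenib and 1198 to 1234 in controls). COL1A1, PTPRC, CD3E and PECAM1 did not reach detection on 3 arrays, and the part of the marker shifts in the results below was not tested. Because each sample is a mass of cells, fewer transcripts per cell and fewer expressing cells cannot be told apart.

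Sorafenib split the growth arrest genes. GADD45A, GADD45G and BTG1 rose, CDKN1C, CDKN2A, CDKN2B and GADD45B fell, and CDKN1A and CDKN1B did not pass the test. Thus 7 of the 9 measured genes passed at an adjusted p under 0.05, with limma's moderated test adjusted by Benjamini-Hochberg over all 16909 tested probes, against 36.7% of the 10598 measured genes. By direction, the counts were 3 of 9 higher, against 19.7% of all genes, and 4 of 9 lower, against 17.0%. GADD45G, 1 of the 3 higher and also in the probe counts below, met the filter through the sorafenib arrays, where it is high. With detection required on all 6 arrays GADD45G was not tested, and 6 genes passed, 2 higher and 4 lower. Without sorafenib replicate 2, control replicate 1 or control replicate 2, 4 of the 9 genes passed, GADD45A, GADD45G, BTG1 and CDKN1C. The median log2 difference of the 9 genes was -0.02, and over all measured genes it was 0.00. By probe, 9 of 13 passed (4 higher and 5 lower), against 34.2% of all tested probes, 17.9% higher and 16.2% lower. On 10 of the 13 probes the 3 sorafenib values did not overlap the 3 control values, against 49.5% of all tested probes: 4 lay higher, against 25.0%, and 6 lower, against 24.5%. The array-wide background is thus high, and the sizes of the differences set the members apart from one another more than the count does: they ran from -0.45 (CDKN1C) to 1.38 (GADD45A) on the log2 scale, sorafenib minus control, leaving aside GADD45G, whose size depends on the background correction.

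**Figure D1:**
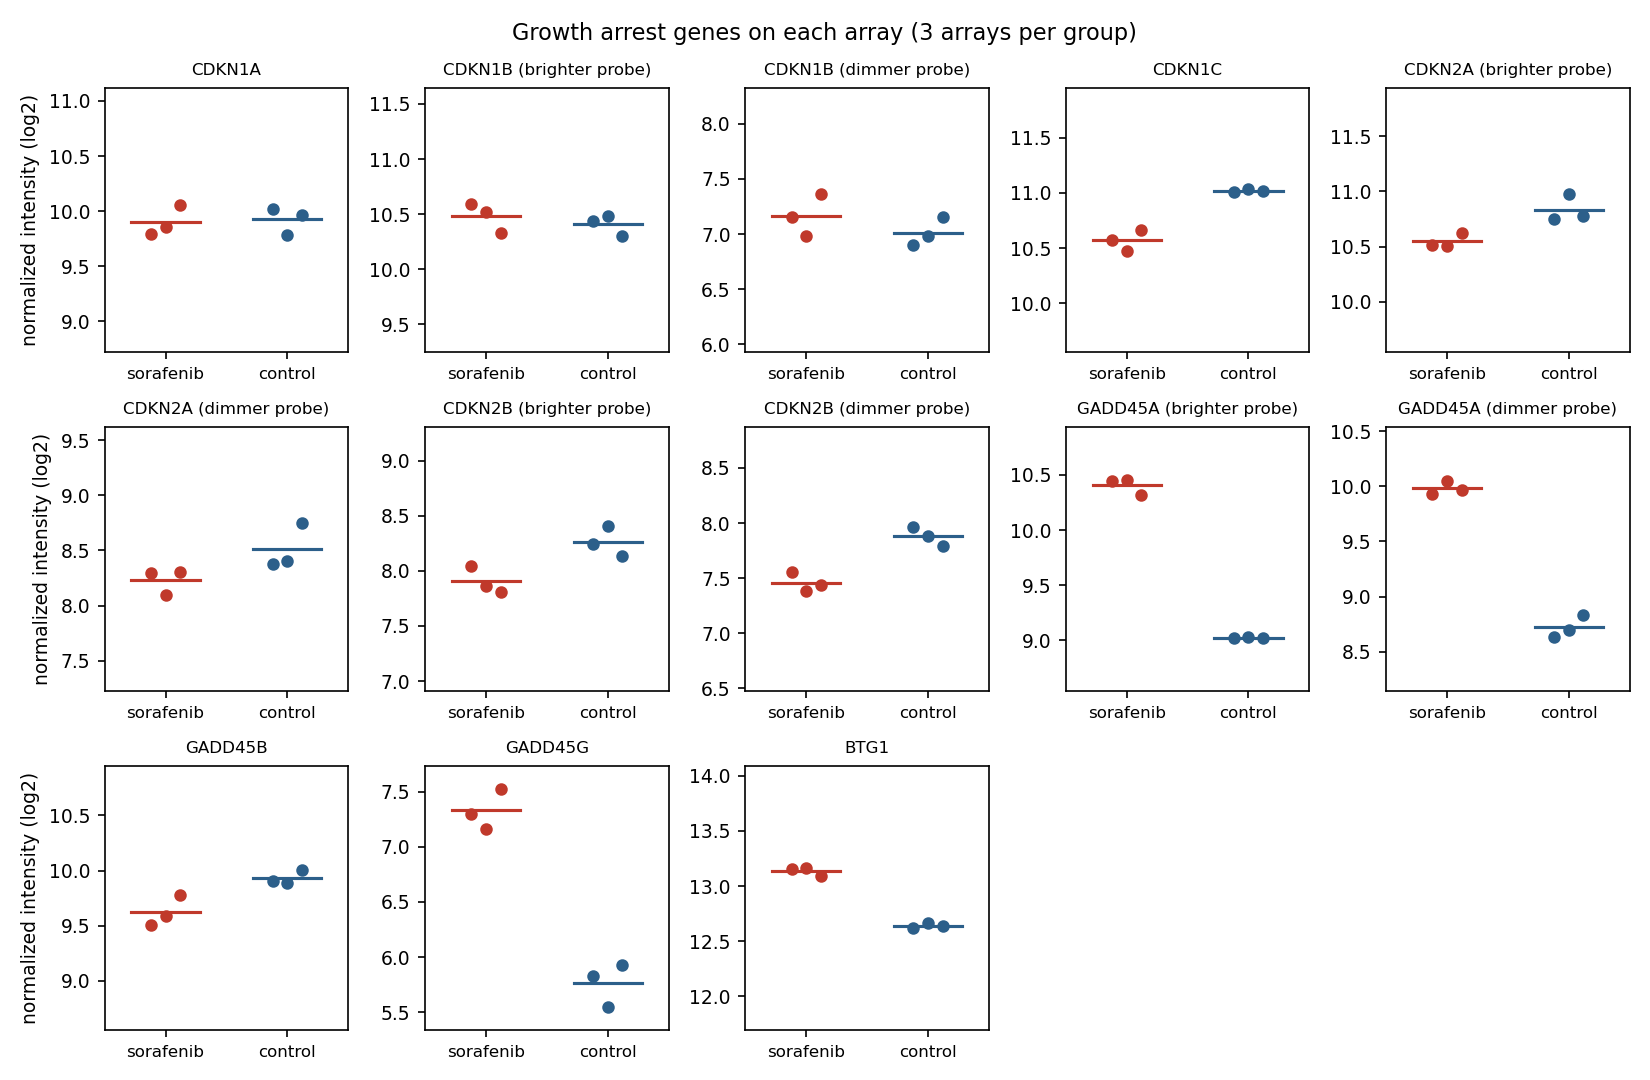
Each panel plots the normalized intensity (log2) of 1 tested probe on the 3 sorafenib arrays (left, red) and the 3 control arrays (right, blue), with the group mean as a bar, and every panel spans the same height. GADD45A, GADD45G and BTG1 lie wholly above their controls, the CDKN1C, CDKN2A, CDKN2B and GADD45B probes wholly below, and the CDKN1A and CDKN1B groups overlap.

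GADD45A, whose protein loosens the CDK1 and cyclin B complex and activates stress kinases, was higher by 2.61-fold with sorafenib. Its brighter probe read 10.45, 10.46 and 10.32 (normalized log2 intensity) on the sorafenib arrays, against 9.02, 9.03 and 9.02 on the control arrays. The controls were almost identical to each other and the lowest sorafenib array stood 1.29 above the highest of them. The difference was 1.38 ± 0.07 on the log2 scale (SE, n = 3 per group, limma adjusted p = 6.1e-05), and it was the 90th largest rise among the 16909 tested probes. A second, dimmer GADD45A probe, annotated to the same transcript, moved by a similar amount: 9.93, 10.05 and 9.97 with sorafenib against 8.63, 8.70 and 8.84 in controls, a difference of 1.26 ± 0.08.

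GADD45G, best known as a cytokine-induced and developmentally regulated member that also restrains growth, was near background in control cells. It read 7.30, 7.16 and 7.53 with sorafenib, against 5.83, 5.55 and 5.93 in controls. All 3 sorafenib arrays detected it, whereas only 1 of the 3 control arrays did. The probe thus met the filter through the sorafenib arrays, where it is high. The fitted rise was 2.95-fold (log2 1.56 ± 0.13, SE, adjusted p = 0.000294), but with control detection p-values of 0.00649 to 0.0338 this size depends on the background correction. In the deposited log2 values, which carry none, the difference was 0.85, below the 1.26 of GADD45A there.

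GADD45B, a member induced by TGF-beta and NF-kB signalling, went the other way. Values were 9.51, 9.59 and 9.78 with sorafenib and 9.90, 9.88 and 10.001 in controls, so every sorafenib array lay below every control array, though by only 0.11 at the nearest. It was 1.24-fold lower (log2 -0.31 ± 0.09, SE, adjusted p = 0.0348). That call was lost without sorafenib replicate 1 (adjusted p = 0.109), sorafenib replicate 2 (0.0970), control replicate 1 (0.0799), control replicate 2 (0.0636) or control replicate 3 (0.0938), and with arrays centred on the median of all probes (0.222) or with no filter on dim probes (0.0895). The 95% intervals of the log2 differences were 1.22 to 1.54 for GADD45A and 1.25 to 1.87 for GADD45G, but -0.51 to -0.10 for GADD45B: the first 2 lie above 0 and that of GADD45B below it.

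BTG1, an antiproliferative gene abundant in resting cells, rose 1.41-fold. Its probe read 13.15, 13.17 and 13.09 on the sorafenib arrays against 12.62, 12.66 and 12.64 on the control arrays. Spread within each group was at most 0.04 (SD), and the groups were separated by 0.43. The log2 difference was 0.49 ± 0.06 (SE, adjusted p = 0.00139).

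**Figure D2:**
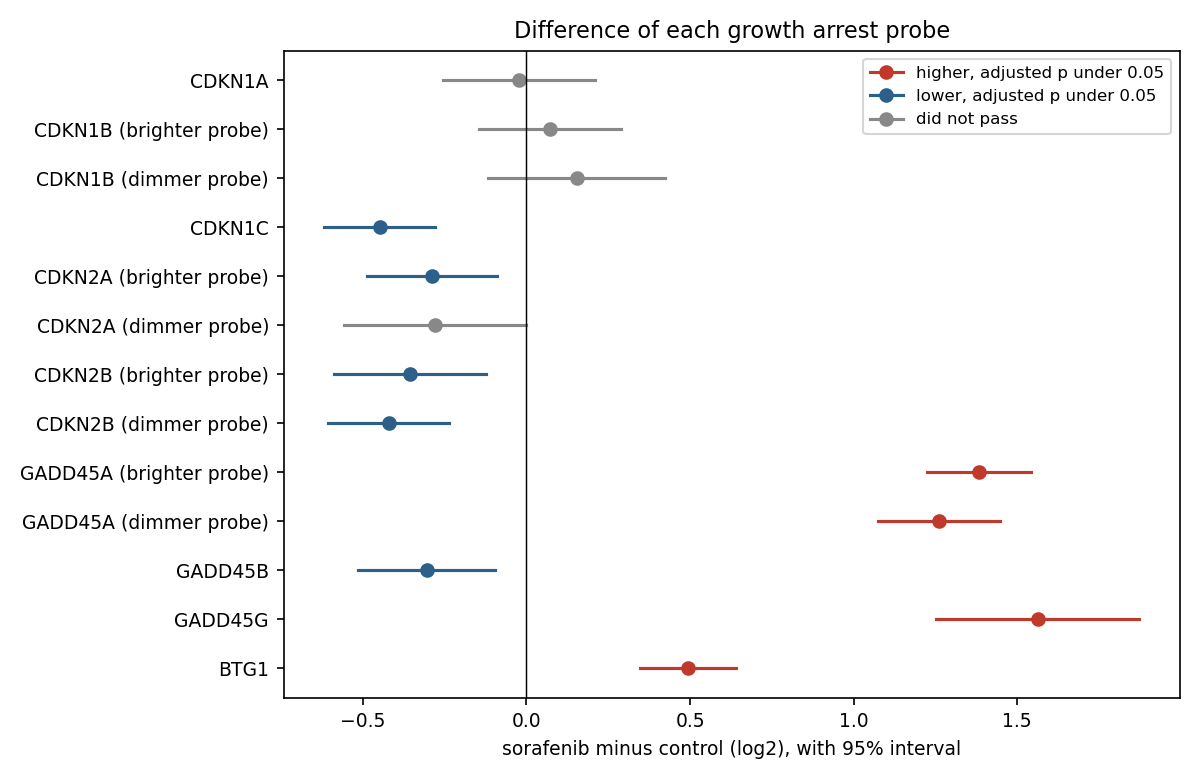
The log2 difference of each tested probe, sorafenib minus control, with its 95% interval from limma, with probes of a gene that has 2 tested probes named brighter and dimmer. GADD45A and GADD45G lie above 1 and BTG1 near 0.5, the CDKN1C, CDKN2A, CDKN2B and GADD45B intervals lie below 0 although the dimmer CDKN2A probe did not pass after adjustment, and the CDKN1A and CDKN1B intervals include 0.

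Among the CIP/KIP inhibitors only p57 moved past the threshold. CDKN1C read 10.58, 10.48 and 10.67 with sorafenib, against 11.01, 11.04 and 11.02 in controls. The control arrays again differed little (SD 0.01), and the highest sorafenib array was 0.35 below the lowest of them. The gene was 1.36-fold lower (log2 -0.45 ± 0.07, SE, adjusted p = 0.00369). CDKN1C is expressed from the maternal copy of an imprinted cluster. Of its 7 listed neighbours there, 5 were measured, and 2 fell (0 rose): PHLDA2, a growth restraining placental gene, by 0.40 and the noncoding RNA H19 by 0.38. Over all measured genes 17.0% were lower and 19.7% higher. The H19 call was lost without control replicate 1 (adjusted p = 0.0708) or control replicate 2 (0.0570). KCNQ1OT1, the noncoding RNA made from the paternal copy of that domain, differed by 0.00 and NAP1L4 by 0.01. KCNQ1OT1 was near background, detected on 2 of 3 control arrays, so a change in it could be missed. IGF2 differed by -1.07 ± 0.37 without passing (adjusted p = 0.0638), while a second IGF2 probe gave -0.92 and passed (0.0411).

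CDKN1A, which encodes p21, read 9.80, 9.86 and 10.06 with sorafenib and 10.02, 9.79 and 9.97 in controls. The groups overlapped. The difference was -0.02 ± 0.10 (SE, adjusted p = 0.881), with a 95% interval of -0.26 to 0.21, so these arrays leave room for a change of up to that size in either direction. The other CDKN1A probe, annotated to another transcript variant, was not above background on any array, with raw intensities of 74.8 to 107.5 in sorafenib samples and 85.8 to 89.8 in controls.

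CDKN1B, which encodes p27, likewise showed no difference past the threshold on either probe. The brighter read 10.59, 10.52 and 10.33 with sorafenib, against 10.44, 10.48 and 10.30 in controls (difference 0.07 ± 0.09, interval -0.14 to 0.29). The dimmer read 7.15, 6.99 and 7.36, against 6.90, 6.99 and 7.15 in controls (0.15 ± 0.12, interval -0.12 to 0.42, adjusted p = 0.344). Both differences were above 0, but the groups overlapped on each probe.

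The INK4 genes were lower. CDKN2A makes p16 and, from a separate first exon, the MDM2-binding protein ARF, and its probes are annotated to different transcripts. The brighter, annotated to the p16 transcript, read 10.51, 10.51 and 10.62 with sorafenib, against 10.75, 10.98 and 10.78 in controls (1.22-fold lower, log2 -0.29 ± 0.08, adjusted p = 0.0356). The probe annotated to the ARF transcript gave 8.29, 8.10 and 8.30 against 8.38, 8.41 and 8.75 in controls, a difference of nearly the same size that did not pass (-0.28 ± 0.12, adjusted p = 0.109). Whether either probe is particular to its transcript was not checked, as probe sequences were not used here. Another CDKN2A probe was not above background on any array.

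CDKN2B, the p15 gene next to CDKN2A that TGF-beta induces, was lower on both of its tested probes. The brighter read 8.04, 7.86 and 7.81 with sorafenib, against 8.24, 8.41 and 8.14 in controls (1.28-fold lower, log2 -0.36 ± 0.10, adjusted p = 0.0297). The dimmer, annotated to the other transcript variant, read 7.55, 7.39 and 7.44 against 7.97, 7.89 and 7.79 in controls (1.34-fold lower, -0.42 ± 0.08, adjusted p = 0.00698). Its remaining probe was not above background on any array. Among 4 listed neighbours of the locus, MTAP differed by 0.13 (adjusted p = 0.242) and DMRTA1 by 0.25 (0.0917), none past the threshold in limma's test (1, DMRTA1, had an unadjusted p under 0.05), and no probe of the antisense gene CDKN2B-AS1 reached detection.

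The small falls of the INK4 genes were near the limit of the test. The call of the brighter CDKN2A probe was lost without sorafenib replicate 1 (adjusted p = 0.106), sorafenib replicate 2 (0.100), control replicate 1 (0.0543), control replicate 2 (0.0851) or control replicate 3 (0.0552), with the replicate number as a block (0.0579), with a detection p under 0.05 as the filter (0.0515) and with no filter on dim probes (0.0928). That of the brighter CDKN2B probe was lost without sorafenib replicate 2 (0.0875), sorafenib replicate 3 (0.0780), control replicate 1 (0.0726) or control replicate 2 (0.0803) and with no filter (0.0753), whereas the dimmer CDKN2B probe passed in each of these fits. With each array centred on its median over all probes, only CDKN1C among the fallen genes still passed (adjusted p = 0.0403), and of all called probes 69.5% were then higher, against 52.5% in the main normalization. Among the genes named below, that centring also ended the calls of CDKN2D, E2F2, SKP1, DTL, TIGAR, PPM1D, FOXO4 and EZH2, and that of PHLDA2 above.

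**Figure D3:**
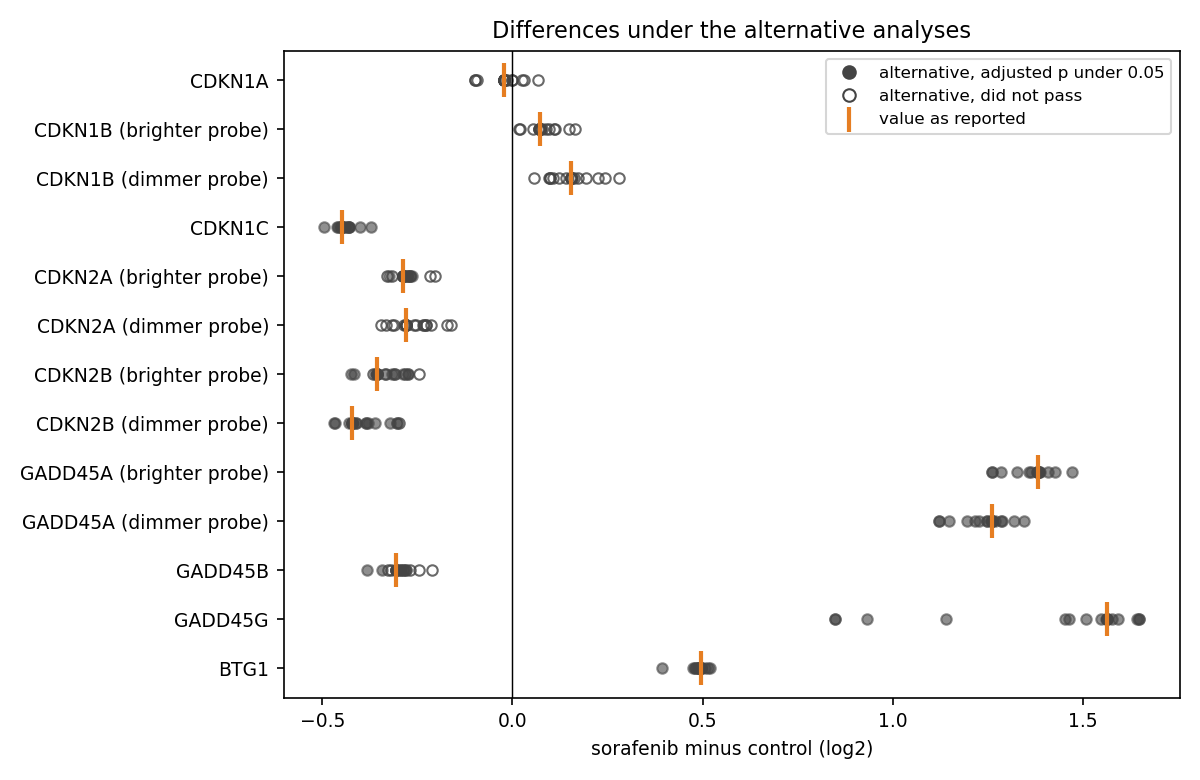
The log2 difference of each tested probe (sorafenib minus control) under the alternative analyses, filled where the adjusted p was under 0.05 and open where it was not, with the reported value as an orange bar. GADD45A, GADD45G, BTG1 and CDKN1C are filled throughout, GADD45G spreads from 0.85 to 1.65, and the CDKN2A, CDKN2B and GADD45B rows hold open circles. GADD45G met the filter through the sorafenib arrays, where it is high, and has no circle for the fit that required detection on all 6 arrays.

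Relatives of these families that were not among the 10 genes were measured for 4 of 6 listed genes, of which 2 were lower and none higher. Over all measured genes 17.0% were lower and 19.7% higher. The median log2 difference of the 4 relatives was -0.33, but so few genes do not settle whether they share a direction. TOB1, a BTG family member that also recruits the deadenylase, was 1.49-fold lower (log2 -0.57 ± 0.14, adjusted p = 0.0180), a call lost without sorafenib replicate 1 (adjusted p = 0.0527), control replicate 1 (0.0536) or control replicate 2 (0.0532). CDKN2D, which encodes the INK4 protein p19, was 1.35-fold lower (-0.43 ± 0.08, adjusted p = 0.00616). BTG3 differed by 0.01 and TOB2 by -0.23 (adjusted p = 0.0907). BTG1 was thus higher and TOB1 lower in the same samples.

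For the gene lists that follow, each gene stands by its brightest probe, and over all measured genes 19.7% were higher, 17.0% lower and the median log2 difference was 0.00. Of the kinases and cyclins that the inhibitors bind, 7 of 11 measured genes were lower and none was called higher on its brightest probe, with a median of -0.53. Cyclin E1 (CCNE1), partner of CDK2 at the start of S phase, was 1.98-fold lower: 9.24, 9.27 and 9.29 with sorafenib against 10.26, 10.30 and 10.20 in controls. CCND1 was 1.53-fold lower, CDK2 1.52-fold and CCND3 1.49-fold. Cyclin D2 (CCND2) went the other way: its brightest probe differed by 0.28 and narrowly missed the threshold (adjusted p = 0.0505), while its second probe differed by 0.30 and passed as higher (0.0322). With cyclic loess, the replicate block, array weights and other alternatives the list held 1 higher gene. CDK4 and CDK6, the targets of p16 and p15, differed by 0.10 (adjusted p = 0.299) and -0.18 (0.107). Of the RB and E2F family, 3 of 10 measured genes were lower and none higher on the brightest probe (median -0.13): the repressor E2F7 was 1.77-fold lower, the E2F partner TFDP1 1.35-fold and E2F2 1.28-fold. The brightest probe of TFDP2, another E2F partner, differed by 0.12 with a wide spread (adjusted p = 0.675), and its second probe differed by 0.29 and passed as higher (0.0246). The RB1 probe was not detected on any array (detection p 0.0948 to 0.349).

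Transcripts of proteins that GADD45 factors bind or act on were lower in 4 of 6 measured cases and higher in none, with a median of -0.44. CDK1 and CCNB1 are also in the list of kinases and cyclins above, so the counts of these lists are not separate. PCNA, the replication clamp, was 1.75-fold lower, CCNB1 1.45-fold, CDK1 1.44-fold and AURKA 1.275-fold. The CCNB1 call was lost without sorafenib replicate 1 (adjusted p = 0.0519), control replicate 2 (0.0552) or control replicate 3 (0.0545). That of AURKA was lost without sorafenib replicate 1 (0.0744), sorafenib replicate 3 (0.0566), control replicate 1 (0.0672) or control replicate 2 (0.0618). MAP3K4, the kinase that GADD45 proteins activate, differed by 0.18 (adjusted p = 0.113). Of 8 measured partners of BTG proteins, none passed in limma's test after adjustment (1 had an unadjusted p under 0.05, the poly(A) binding protein gene PABPC1), and their median was -0.03: the deadenylase subunits CNOT7 and CNOT8 differed by -0.13 and 0.01, and the methyltransferase PRMT1 by -0.12.

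Subunits of the ubiquitin ligases that degrade p21 and p27 were all measured, and 5 of 12 were lower and none higher (median 0.00). DTL, the receptor through which CUL4 ligases take p21 on chromatin, was 1.42-fold lower, RBX1 1.40-fold, SKP1 1.28-fold and CDC20 1.25-fold. SKP2, the receptor for p27 and the remaining gene past the threshold, was 1.25-fold lower on its brightest probe (log2 -0.32), while a second probe differed by -0.71 and passed (adjusted p = 0.00111) and another by -0.34 without passing (0.0830). The DTL call was lost without control replicate 1 (adjusted p = 0.0543), control replicate 2 (0.0758) or control replicate 3 (0.0507), and that of the brightest SKP2 probe without sorafenib replicate 1 (0.0742), sorafenib replicate 3 (0.0564) or control replicate 2 (0.0643). Protein levels of p21 and p27 were not measured.

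**Figure D4:**
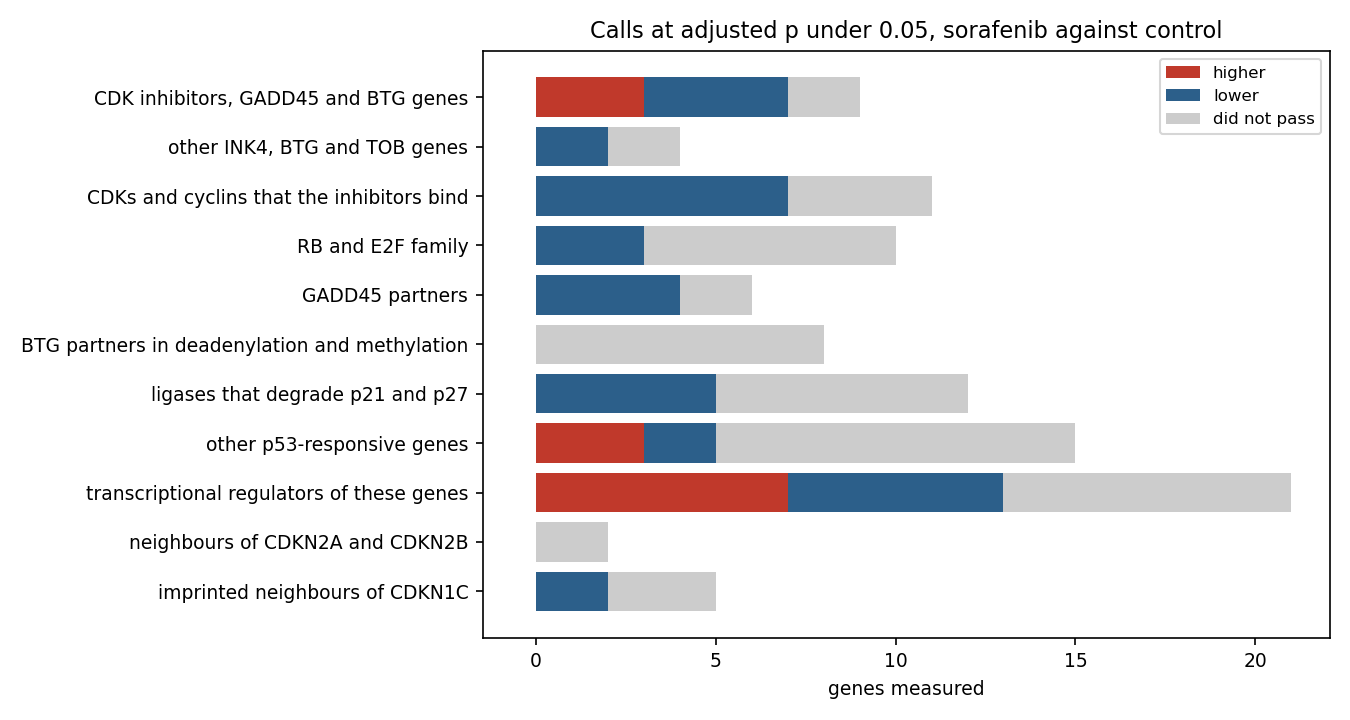
Bars count the measured genes of each list that were higher (red), lower (blue) or did not pass (grey) with sorafenib against control at an adjusted p under 0.05. The kinases and cyclins, GADD45 partners and ligases hold lower genes and no higher ones by brightest probe (a second CCND2 probe passed as higher), while the 9 growth arrest genes, their regulators and the p53-responsive genes hold both. CDK1 and CCNB1 count in both the kinases and cyclins and the GADD45 partners.

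Other genes known to respond to p53 were mixed: 3 of 15 measured rose, 2 fell and 10 did not pass (median 0.00), shares near those of all measured genes (19.7% higher and 17.0% lower). The risers were SESN2, a sestrin that restrains mTORC1 (2.71-fold, log2 1.44 ± 0.09), the death receptor gene TNFRSF10B (1.82-fold) and TP53INP1 (1.27-fold). PPM1D, a phosphatase that dampens p53 signalling, was 1.24-fold lower, and its call was lost without sorafenib replicate 1 (adjusted p = 0.118), sorafenib replicate 2 (0.133), control replicate 1 (0.0657), control replicate 2 (0.118) or control replicate 3 (0.0698), with the replicate number as a block (0.0800) and with a detection p under 0.05 as the filter (0.0634). TIGAR, a fructose bisphosphatase, was 1.19-fold lower, a call lost without sorafenib replicate 2 (0.0821), sorafenib replicate 3 (0.0558), control replicate 1 (0.0903) or control replicate 3 (0.0622). MDM2, detected on 2 of 3 control arrays, differed by 0.16 (adjusted p = 0.535), BAX by -0.13, BBC3 by 0.00 and CCNG1 by -0.01. GADD45A and CDKN1A, both p53 targets, had intervals of 1.22 to 1.54 and of -0.26 to 0.21.

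Transcription factors and chromatin regulators known to act on these 10 genes moved both ways, 7 of 21 measured being higher and 6 lower (median 0.11). DDIT3 (CHOP), which the ATF4 branch of the stress response induces, was 3.24-fold higher: 11.26, 11.33 and 11.35 with sorafenib against 9.57, 9.68 and 9.61 in controls. CEBPB was 2.60-fold and ATF3 2.54-fold higher. ATF4 itself differed by 0.77 on its brightest probe and 0.93 on a second, while another gave 0.07 without passing. EGR1, an ERK-responsive factor known to bind motifs of the EGR1 box type, was 4.49-fold lower: 7.57, 7.62 and 7.54 with sorafenib against 9.64, 9.78 and 9.81 in controls. The forkhead factors, named after their values were seen because the BTG1 window holds a forkhead element, differed among themselves: FOXO3 rose 1.66-fold (0.73 ± 0.13, with 0.52 on a second probe that did not pass, adjusted p = 0.0648), FOXO1 was 1.48-fold lower and FOXO4 1.30-fold lower. The FOXO4 call was lost without sorafenib replicate 2 (adjusted p = 0.0537), control replicate 1 (0.0669) or control replicate 3 (0.0551). MYC, which represses CDKN1A and CDKN2B, rose 1.32-fold, and EZH2, the methyltransferase that silences the CDKN2A locus, was 1.29-fold lower. HIF1A did not pass on its brightest probe (-0.26, adjusted p = 0.0508) but passed as lower on 2 others (-0.31 and -0.68). Whether any of these factors acted on the growth arrest genes was not tested.

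**Figure D5:**
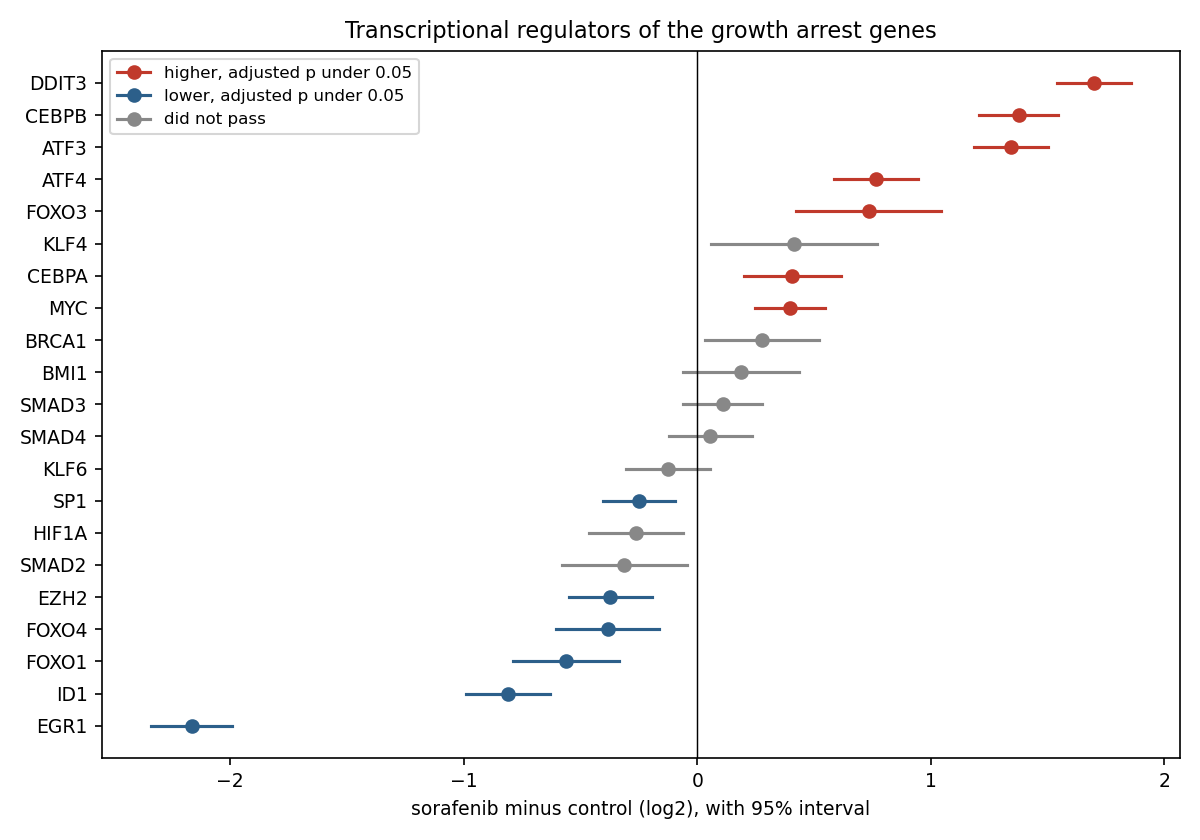
The log2 difference (sorafenib minus control) of each measured regulator with its 95% interval, ordered from highest to lowest. DDIT3, CEBPB and ATF3 lie above 1, EGR1 lies below -2, and FOXO3 and FOXO1 lie on opposite sides of 0.

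Genes most like each growth arrest gene were found by the root mean square distance between the 6 log2 values, each gene centred on its control mean, over all 10598 measured genes. GADD45A was nearest to NEBL (distance 0.06, log2 difference 1.38) and to ATF3 (0.09, 1.34). GADD45G was nearest to the mTORC1 inhibitor gene DDIT4 (0.08, 1.55) and to DDC (0.08). The size of the GADD45G difference depends on the background correction, so its nearest genes may too, which was not tested. The nearest to BTG1 were NBPF11 (0.01, 0.50) and ACTG1P25 (0.03, 0.50), and to CDKN1C the respiratory chain gene NDUFA2 (0.02, -0.47) and ITIH2 (0.03, -0.46). CDKN2A lay closest to PIK3R4 and TMEM11, CDKN2B to PHC3 and NCKAP5, and GADD45B to ZCCHC24 and KHSRP, all within 0.04. With 10598 candidates and differences of this size, small distances are common for the weakly changed genes.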

How the data were processed

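The 6 arrays of 1 cell line were used, 3 per group as labelled. Per the file headers, the authors deposited a non-normalized intensity and a detection p-value per probe, and a series matrix of log2 values. The log2 values equal quantile-normalized log2 raw intensities to within 5e-07, so they carry no background correction.

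Intensities were background-corrected and quantile-normalized with neqc (limma 3.58.1, R 4.3.3, offset 16, background from the detection p-values). The number of arrays limits the precision. Differences are sorafenib minus control on the log2 scale with moderated standard errors (SE), fitted with lmFit and eBayes over all 16909 probes, two-sided. The same code was tested on simulated data. Gene names are the platform annotation's: 30112 probes had 1 symbol, 8 several and 17201 none, 30073 matched RefSeq by Entrez ID and no symbol changed. A gene's brightest tested probe stands for it. Matches of promoters used RefSeq windows.

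The members, lists and tests were chosen with earlier results of these data known. Named were every member probe, up to 4 called genes per list with the largest differences, and each member's 2 nearest genes; others were named after their values were seen. Alternatives changed the background correction, the normalization, the filter on dim probes, the model (replicate block, trend and robust moderation, array weights), the arrays left out and the rule for several probes of a gene. The sources used here give no slide or scan date. Replicate numbers are not stated to pair samples.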

Additional observations from a re-analysis of the deposited data

How the results depend on the processing

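The counts of growth arrest genes moved with the normalization and the filter: 7 genes passed as reported, 4 with each array centred on its median over all probes and 4 with no filter on dim probes (3 higher and 1 lower in both). Leaving out each array gave 4 to 6 genes, and the 3 risen genes, GADD45A, GADD45G and BTG1, passed in each of those fits. By probe, 9 passed as reported, 5 with median centring over all probes, and 6 to 8 without 1 array. CDKN1A, which passed nowhere, turned to 0.06614 with median centring over all probes and ranged from -0.09858 to 0.03074 without 1 array. The cause was not tested. GADD45G was not tested where detection on all 6 arrays was required.

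Same-numbered replicates of both groups had correlations of deviations of 0.0892, 0.102 and 0.252. Replicates 1 and 2 gave much the same across numbers (0.0942 and 0.099), whereas replicate 3 with another number gave -0.174 to -0.136. Sorafenib replicate 3 and control replicate 3 thus tended to deviate the same way (0.252), and the numbers of replicates 1 and 2 made no difference. Each deviation was taken from the mean of its own group, so the negative values are tied to the positive one and are not separate evidence. Whether a factor shared by replicate number lay behind this was not tested. As the labels state no pairing, the numbers were not taken to pair samples. With the replicate block, 6 of the growth arrest genes and 5519 of all probes passed, against 7 and 5778.

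Over the alternatives, the called genes numbered 6 to 9 for kinases and cyclins (7 as reported), 2 to 5 for the RB and E2F family (3), 2 to 5 for GADD45 partners (4), 0 to 1 for BTG partners (0), 3 to 5 for the ligases (5), 3 to 7 for p53-responsive genes (5), 11 to 15 for the regulators (13), 1 to 2 for the INK4, BTG and TOB relatives (2), 0 to 1 for the CDKN2A neighbours (0) and 1 to 3 for the CDKN1C neighbours (2). Median centring over all probes ended the calls of CDKN2D, E2F2, SKP1, DTL, TIGAR, PPM1D, FOXO4, SP1, EZH2 and PHLDA2, besides CDKN2A, CDKN2B and GADD45B (adjusted p 0.0701 for CDKN2D to 0.363 for TIGAR). Having no filter, where more probes were tested, ended those of CDKN2A, CDKN2B and GADD45B on their brightest probes and of AURKA, DTL, SKP2, TIGAR, PPM1D, FOXO4, SP1 and H19 (0.0502 for FOXO4 to 0.113 for PPM1D). The replicate block ended those of CDKN2A (0.0579) and PPM1D (0.0800). No slide information was found, so a slide block was not run.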
